A study of Ovis aries with 24 samples.

Results

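Transcripts of 6 genes that govern how much skeletal muscle forms and how its cells mature were followed across sheep muscles: myostatin (MSTN), follistatin (FST) and the 4 myogenic regulatory factors MYOD1, MYOG, MYF5 and MYF6. The members were the probe sets whose gene symbol in the platform annotation is exactly one of these names, which gave 8 of 24128 probe sets, for 6 of the 9156 genes that a probe set names singly. MSTN and MYOD1 each have 2 probe sets, called brighter and dimmer here by their mean signal, and the other 4 genes have 1 each. Skeletal muscle RNA from cross-bred Dorset, Suffolk and Rambouillet sheep was hybridised to a bovine Affymetrix expression array, on 24 arrays that form 12 groups of 2 technical arrays. The callipyge mutation enlarges some muscles over the first weeks of life in lambs that carry it on the paternal chromosome alone, and the study set out to separate transcripts of the enlargement from those of the accompanying fibre type change.

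The 4 genotypes at the callipyge locus are CC (homozygous), CN (heterozygous with a paternal mutant allele, the genotype with the trait), NC (heterozygous with a maternal mutant allele) and NN (wild type). Longissimus dorsi (LD), a back muscle that enlarges in CN lambs, was taken from all 4 genotypes at T0 (newborn, up to 5 days after birth) and at T12 (11 to 12 weeks). Supraspinatus (SS), a shoulder muscle, was taken from CN and NN at T12, and the muscle coded SM and ST (semitendinosus, a hind limb muscle) from NN at T12. The labels give SM conflicting names, so its code is kept. The labels' protocols speak of 8 male lambs for LD, 4 of each of 2 genotypes, and how many animals lie behind an array is not known here. The p-values rest on the spread of group values in which each group counts once, and whether a genotype or the sampled animals set a difference cannot be told apart. A lower signal in muscle tissue can come from fewer cells of a type or from less RNA per cell, and these cannot be told apart.

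Myostatin is a ligand of the TGF-beta family that muscle fibres secrete. It signals through activin type II receptors and SMAD proteins and restrains muscle growth, and its loss gives heavy muscling in several livestock breeds. Follistatin is a secreted protein that binds and neutralises myostatin and activins. The myogenic regulatory factors are basic helix-loop-helix transcription factors that pair with E proteins: MYF5 and MYOD1 commit cells to the muscle lineage, MYOG drives their terminal differentiation, and MYF6 is the factor that persists in mature fibres.

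All arrays had been scaled to the same trimmed mean of 200.1, and their median signal lay between 47.4 and 59.7. DLK1, an imprinted gene at the callipyge locus, had a mean signal of 9573 in LD of CN at T12 and 965.2 to 2818 in the other genotypes, and 4093 against 1106 to 1390 at T0, so CN was highest at both ages. In SS it was 1220 in CN and 1217 in NN. Of the 6 muscle fibre markers, 5 had a tested probe set, and the skeletal actin gene ACTA1 ranged from 27820 to 36630 over the 12 groups. The GAPDH control probe sets gave a 3' to 5' ratio, a measure of RNA integrity in which lower is more intact, that on the log2 scale was −0.03 to 0.09 on the CC and CN arrays of LD at T12 and 0.19 to 0.25 on the NC and NN arrays. At T0 it was 0.13 to 0.23 in CC and CN and 0.25 to 0.31 in NC and NN. CC and CN therefore had the lower GAPDH ratios at both ages, whereas the actin control ratios of the genotypes overlapped.

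**Figure D1:**
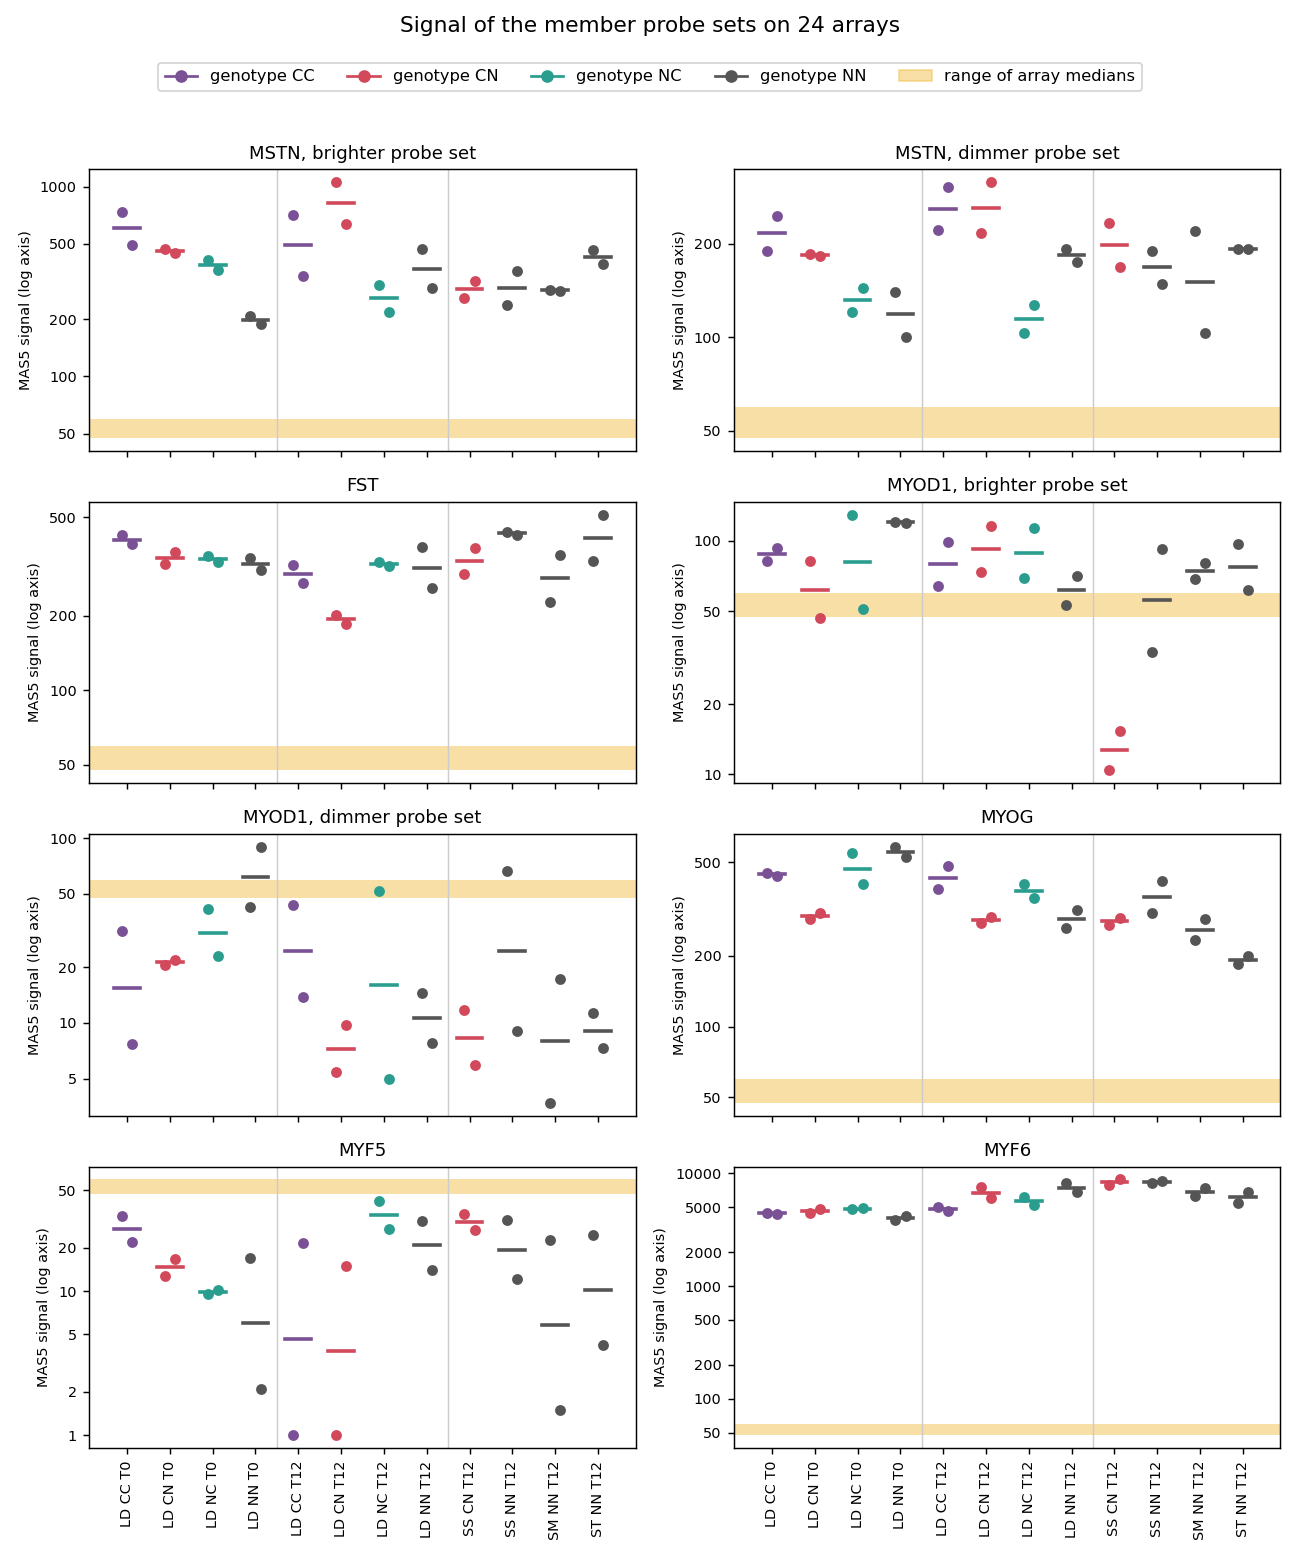
MAS5 signal (log axis) of the 8 member probe sets on 24 arrays, by muscle, genotype and age. Points are arrays, short lines are group means, and the yellow band is the range of array medians. MYF6 lay far above the band in all groups (3884 to 8863.1), and MYF5 lay below it on all arrays (1 to 42).

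Of the 8 member probe sets, 7 passed the filter on low signal (a group mean above 49.8 in at least 1 group), and MYF5 did not. In LD of CN lambs at T12, MSTN was at its highest and FST at its lowest level of the 12 groups. MYOG was below the other genotypes in CN at T0, and the brighter MYOD1 probe set was at its lowest in SS of CN. MYF6 was higher in all T12 groups except LD of CC than in any T0 group. None of these differences passed the test, which required a Benjamini-Hochberg adjusted p under 0.05 in limma over 15654 probe sets.

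In CN against the mean of CC, NC and NN in LD at T12, 0 of 7 member probe sets were called, where 0.179% of all tested probe sets were, and 2 of 7 had an unadjusted p under 0.05 (9.98% of all). In the same comparison at T0, 0 of 7 were called (0.172% of all) and 1 had an unadjusted p under 0.05 (11.7% of all). Between T0 and T12 in LD of CC, NC and NN, 0 of 7 were called although 11.7% of all tested probe sets were, and 2 had an unadjusted p under 0.05 (26.3% of all). These 3 comparisons share the groups of CC, NC and NN. The test of whether the age step differed between CN and the other genotypes called 0 of 7 and 0% of all, with 1 member and 8.89% of all at an unadjusted p under 0.05.

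In SS, CN against NN gave 0 of 7 calls and 0% of all, with 1 member and 4.19% of all at an unadjusted p under 0.05. The difference between the CN effects in SS and LD also gave 0 of 7 and 0%, with 1 member and 4.96% of all unadjusted. The comparisons of muscles took LD as the mean of CC, NC and NN at T12, and SS, SM and ST from NN. An F test over LD, SS, SM and ST gave 0 of 7 beside 1.28% of all, and 1 member unadjusted beside 12.7%. SS against LD gave 0 of 7 beside 2.96%, and 2 unadjusted beside 15.8%. SM and ST against LD gave 0 of 7 beside 0.0447%, and 1 unadjusted beside 7.35%. Over both ages of LD, NC against NN gave 0 of 7 beside 0.0128%, with 0 unadjusted beside 4.28%, and CC against NN gave 0 of 7 beside 0.0128%, with 2 unadjusted beside 5.49%. In none of the 11 comparisons did the share of members called exceed that of the whole table.

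**Figure D2:**
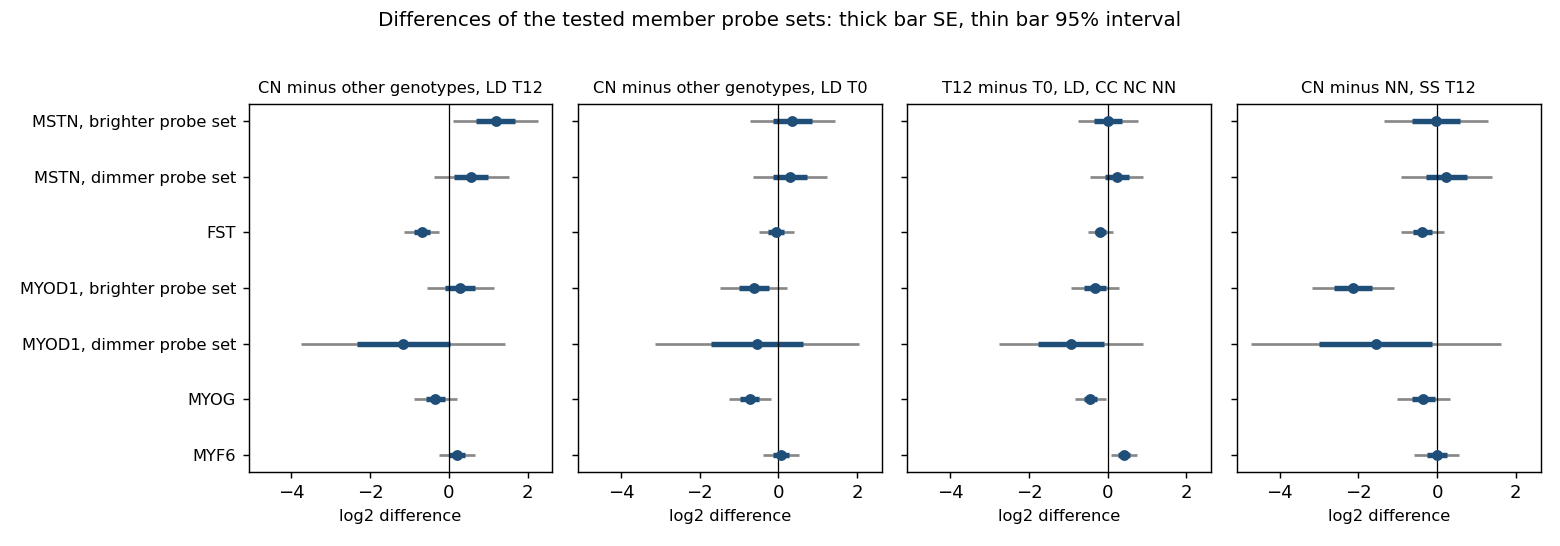
Log2 differences of the 7 tested member probe sets in 4 comparisons, with the SE as a thick bar and the 95% interval as a thin bar. The interval leaves 0 aside for MSTN (brighter) and FST in CN at T12, MYOG in CN at T0, MYOG and MYF6 with age, and MYOD1 (brighter) in SS, before adjustment for the 15654 probe sets.

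MSTN was read by a brighter and a dimmer probe set, and both lay above the median of their own array on all 24 arrays. In LD at T12 the brighter probe set read 1055.1 and 639.5 on the CN arrays, 705.1 and 340.3 on CC, 468.1 and 292.7 on NN, and 304.8 and 218 on NC. CN had the highest value, but a CC array lay above the lower CN array, so the groups overlapped. CN exceeded the mean of the other genotypes by 1.19 ± 0.49 (log2 difference and SE, 95% interval 0.10 to 2.28), a 2.28-fold difference that missed the threshold (limma, Benjamini-Hochberg adjusted p = 0.435). The dimmer probe set read 216.3 and 315.3 on the CN arrays, 221.1 and 303.7 on CC, 192.4 and 174.6 on NN, and 102.9 and 126.9 on NC. Here CN and CC covered the same range and lay above NN and NC. The log2 difference of CN from the other genotypes was 0.57 ± 0.43 (SE, 95% interval −0.38 to 1.52, limma adjusted p = 0.747).

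At T0 the brighter MSTN probe set read 738.3 and 491.4 in LD of CC, 469.8 and 449 in CN, 412.2 and 364.3 in NC, and 208.4 and 188.1 in NN. The NN arrays were the lowest and did not overlap with any other genotype. The dimmer probe set read 190 and 245.5 in CC, 185.7 and 182.7 in CN, 120.2 and 144.2 in NC, and 139.9 and 100.3 in NN, so that CC and CN again lay above NC and NN. CN differed from the mean of the other genotypes by 0.36 ± 0.49 on the log2 scale in the brighter probe set (SE, 95% interval −0.73 to 1.44) and by 0.30 ± 0.43 in the dimmer (−0.65 to 1.25). The brighter value turned to −0.07 when NN was kept out of the comparator. CN therefore lay within the range of the other genotypes at T0, below CC and above NN.

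Over both ages of LD, MSTN in CC exceeded NN by 0.68 ± 0.25 on the log2 scale in the dimmer probe set (SE, 95% interval 0.13 to 1.24, limma adjusted p = 0.866), and the brighter probe set was 2.01-fold higher (log2 interval 0.26 to 1.75, adjusted p = 0.853). NC differed from NN by 0.22 (interval −0.52 to 0.97) and −0.27 (−0.82 to 0.29). In the order of the 8 LD group means, CC and CN stood above NC and NN at both ages in both probe sets, an order that 3.5% of all tested probe sets share and 4.66% show the other way round. The RNA integrity ratio of GAPDH given above separates the same groups of arrays at both ages. Its part in the MSTN values was not tested.

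Outside LD the brighter MSTN probe set read 259.8 and 317.7 in SS of CN, 238.6 and 359.5 in SS of NN, 286.7 and 282.4 in SM, and 464 and 391.5 in ST. The SS arrays of CN and NN overlapped, and the log2 difference between them was −0.03 ± 0.60 (SE, 95% interval −1.36 to 1.30). The CN effect in SS was smaller than that in LD by 1.22 on the log2 scale, with an interval of −2.94 to 0.50 that includes 0. The dimmer probe set gave 233 and 168.5 in SS of CN and 190 and 148.7 in SS of NN, again overlapping, with 219.6 and 103.1 in SM and 192.2 and 192.9 in ST. With age, MSTN differed in LD of CC, NC and NN by 0.01 ± 0.35 (SE, interval −0.76 to 0.77) in the brighter and 0.23 ± 0.31 (−0.44 to 0.90) in the dimmer probe set. The near-zero mean of the brighter probe set combines NN, where the mean signal was 1.87-fold higher at T12, with CC and NC, where it was 0.81-fold and 0.67-fold of that at T0, and without NN it was −0.44.

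The 2 MSTN probe sets followed each other over the 12 group means (Pearson r = 0.802, Spearman rho = 0.825, a description over groups that share a platform and a scaling). From the highest to the lowest group mean, the brighter probe set ran from LD of CN at T12 through CC at T0, CC at T12, CN at T0, ST, NC at T0, NN at T12, SS of NN, SS of CN, SM and NC at T12 to NN at T0. In this order, 2 of 11 gaps between neighbours in the order of group means exceeded the SD between technical arrays of 0.37 (log2), the larger being 0.45 between LD of CN at T12 and LD of CC at T0. In the dimmer probe set no gap exceeded that SD of 0.33, so its neighbouring groups cannot be ordered.

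**Figure D3:**
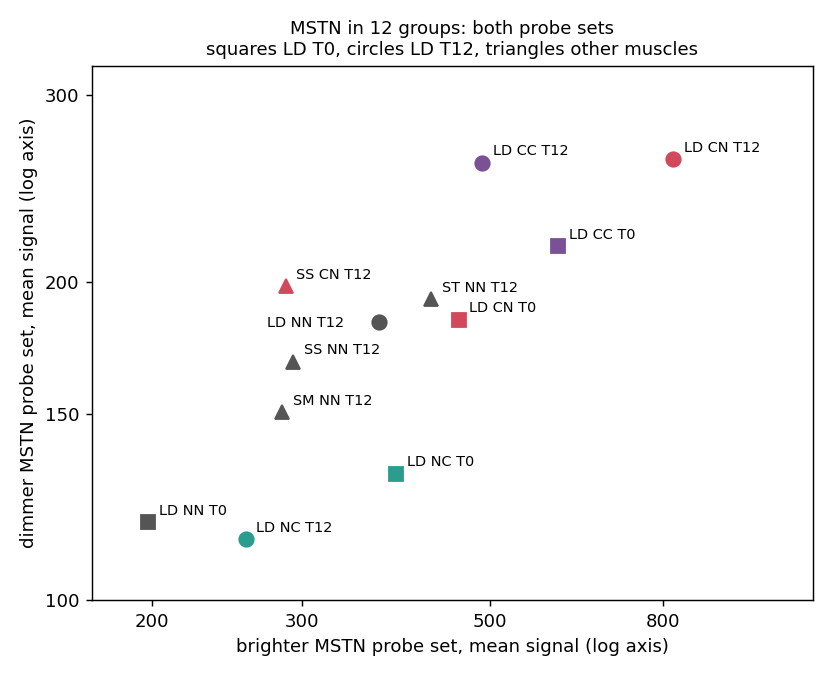
Group means of the brighter against the dimmer MSTN probe set (both axes log, MAS5 signal), colours as genotypes in the plot of levels, with squares for LD at T0, circles for LD at T12 and triangles for SS, SM and ST. LD of CN at T12 stands at the top right (821.4 and 261.2), and NN at T0 and NC at T12 at the bottom left.

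FST, the secreted antagonist of myostatin and activin, was read by 1 probe set. In LD at T12 it read 201.3 and 185.2 on the CN arrays, 321.3 and 271.9 on CC, 328.5 and 318.5 on NC, and 378.8 and 258.2 on NN. Both CN arrays lay below all 6 others, and FST was the only tested member probe set without overlap in this comparison, where the arrays of 7.57% of all tested probe sets lay apart in that direction and 12.6% in either. CN differed from the other genotypes by −0.69 ± 0.20 on the log2 scale (SE, 95% interval −1.13 to −0.24), a 1.61-fold lower level that missed the threshold (limma adjusted p = 0.251). With single arrays left out the difference stayed between −0.78 and −0.59.

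At T0 FST read 323.8 and 363.3 on the CN arrays, inside the range of the other genotypes, which was 306.1 to 424. The log2 difference was −0.05 ± 0.20 (SE, 95% interval −0.49 to 0.40). The age step of CN differed from that of the other genotypes by −0.64 ± 0.29 (SE, interval −1.27 to −0.01, limma adjusted p = 0.556). In CN the FST level at T12 was 0.56-fold of that at T0, against 0.73-fold in CC, 0.95-fold in NC and 0.97-fold in NN. Taken over CC, NC and NN the age step was −0.19 ± 0.14 (SE, interval −0.51 to 0.12).

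In SS, FST read 293.8 and 375.1 in CN and 436.9 and 425.1 in NN. The CN arrays were lower without overlap, as were the arrays of 17.5% of all tested probe sets (34.8% did not overlap in either direction), and the log2 difference was −0.38 ± 0.25 (SE, 95% interval −0.92 to 0.17). SM read 227.9 and 353.4 and ST read 334.1 and 512.6, each with wide spread between its arrays. SS of NN had the highest group mean of FST (431), followed by ST (413.8) and LD of CC at T0 (405.8), and LD of CN at T12 the lowest (193.1). SS of NN exceeded LD of CC, NC and NN by 0.47 ± 0.20 (SE, interval 0.03 to 0.92, limma adjusted p = 0.282), with no overlap of arrays, which 11.1% of all tested probe sets showed in that direction and 21% in either. The widest gap in the order of FST levels, 0.56 on the log2 scale, separated LD of CN at T12 from SM, next above it, and exceeded the array SD of 0.24.

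Several marker lists were lower in LD of CN at T12 together with FST. Of 8 tested slow fibre markers 2 fell, beside 0.179% of all tested probe sets, and all 8 were negative, with a median of −0.60. Those that fell were the slow myosin MYH7 (−0.89 in its brighter probe set, but 0.12 with limma adjusted p = 0.911 in the other) and the slow troponin TNNT1 (−0.97). The summed slow fibre signal was 73103.7 to 78587.8 in CN and 104866.1 to 142857 in the other genotypes. Of 10 fibroblast and matrix markers 8 were negative and 0 were called, with a median of −0.36 beside −0.06 over all tested probe sets and a sum of 31744 to 36282.6 against 42310.5 to 57231.8. All 6 adipocyte markers (median −0.54) and all 6 satellite cell and myoblast markers (median −0.23) were negative as well, with 0 called. In the other direction, TPX2 of the 6 tested proliferation markers was called higher (2.01, limma adjusted p = 0.0496). Its other probe set gave 2.02 (adjusted p = 0.414), and the call was lost in 20 of the fits with 1 array omitted. The summed proliferation signal was 989.9 to 1252.5 in CN and 649.8 to 908.4 in the other genotypes. At T0, when FST did not differ in this way, 9 of 10 fibroblast markers were negative, again with a median of −0.36. The summed slow fibre signal at T0 was also lower in CN, at 93101.6 to 105005.5 against 110223.7 to 132869.8 in the other genotypes. The calls of MYH7 and TNNT1 were lost in 16 and 7 of the fits with 1 array omitted (highest adjusted p = 0.103 and 0.0742), and under 5 and 4 other alternatives. Without NC in the comparator the adjusted p was 0.244 and 0.237, and without an intensity trend 0.28 and 0.221. The part of fibre type and connective tissue in the FST values was not tested.

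MYF5, the earliest of the myogenic factors in the embryo and a marker of satellite cells, had its only probe set below the median of its own array on 24 of 24 arrays. Its values ran from 1 to 42 with a median of 16.8, and it was not tested. The SD between technical arrays was 1.71 on the log2 scale, and none of the 11 gaps between neighbouring groups exceeded it. No order of MYF5 levels can therefore be read from these arrays.

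MYOD1, the other factor of muscle commitment, was read near background. Its dimmer probe set lay below the median of its own array on 22 of 24 arrays (3.7 to 89.6, median 14.2), with an array SD of 1.23 on the log2 scale. Its brighter probe set lay below on 5 of 24 arrays (10.4 to 129.6, median 77). The 2 probe sets did not follow each other closely over the 12 groups (Pearson r = 0.393, Spearman rho = 0.189). What follows rests on the brighter.

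In SS the brighter MYOD1 probe set read 10.4 and 15.4 on the CN arrays and 33.5 and 92.7 on the NN arrays. The CN arrays were the lowest of all 24, below the median of their own arrays, and did not overlap with NN. The log2 difference was −2.14 ± 0.47 (SE, 95% interval −3.18 to −1.10, limma adjusted p = 0.382), and it moved to −1.40 without the second NN array and to −2.87 without the first. With a floor of 16 on the signal it was −1.80, and its size is uncertain because the CN values may not be above background. The dimmer probe set read 11.7 and 5.9 in CN and 66.3 and 9.1 in NN, with a difference of −1.56 ± 1.44 (SE, interval −4.74 to 1.61).

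The brighter MYOD1 probe set did not show this in LD. At T12 it read 73.9 and 116.1 on the CN arrays, 64.3 and 99.2 on CC, 69.2 and 113.6 on NC, and 53.2 and 71 on NN. CN lay above both NN arrays and overlapped with CC and NC, and its difference from the mean of the 3 was 0.29 ± 0.39 (SE, 95% interval −0.56 to 1.14). The CN effect in SS differed from that in LD by −2.43 ± 0.61 (log2 difference and SE, 95% interval −3.77 to −1.08, limma adjusted p = 0.563). In SM it read 68.6 and 80.1 and in ST 96.7 and 61.6, inside the LD range. At T0 MYOD1 read 81.6 and 46.7 on the CN arrays and 51.3 to 129.6 on the other 6, with a difference of −0.62 ± 0.39 (SE, interval −1.47 to 0.23). Of 6 tested satellite cell and myoblast markers, 4 were negative in CN against NN in SS and 0 were called, with a median of −0.33 beside 0 over all tested probe sets. CXCR4, NCAM1 and VCAM1 had the lowest values (−0.54, −0.52 and −0.51), ITGA7 had −0.16, and DES and MET had 0.05 and 0.27. Their summed signal, 16437 to 16488.6 in CN and 15881 to 16259.9 in NN, is mostly DES, which muscle fibres also make (15530 and 15050). The list has 12 genes, and the defining markers PAX7 and CALCR are not among those tested. The part of satellite cells in the MYOD1 values was not tested. GAPDH ratios overlapped, at −0.03 and 0.09 in SS of CN and 0.02 and 0.06 in SS of NN.

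MYOG (myogenin), which drives myoblasts into terminal differentiation and is also raised in fibres that lose their nerve supply, was read by 1 probe set. At T0 in LD it read 285.3 and 305.1 on the CN arrays, 450.8 and 437.8 on CC, 546.1 and 403.3 on NC, and 580.3 and 528.1 on NN. Both CN arrays lay below all 6 others, and MYOG was the only tested member probe set without overlap at T0, where 9.68% of all tested probe sets lay apart in that direction and 18.1% in either. The log2 difference of CN was −0.72 ± 0.25 (SE, 95% interval −1.26 to −0.18), a 1.65-fold lower level that missed the threshold (limma adjusted p = 0.26). It passed (adjusted p = 0.033) in a fit that entered the 24 arrays singly with the group as a random block, which rests on the spread of technical arrays.

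The CN arrays at T0 also had the lowest array medians (47.4 and 48.1, against 50.1 to 52.9 in the other genotypes). Their summed fibroblast markers were 48300.8 to 52563.5 against 61897.8 to 73593. Slow fibre sums were also lower (93101.6 to 105005.5 against 110223.7 to 132869.8). So were endothelial sums (2524.9 to 2628.7 against 2873.7 to 3255.4) and red blood cell sums (146.6 to 172.6 against 192.6 to 382.6). No cell type list was higher in CN without overlap. The part of the array medians and of these lists in the MYOG values was not tested.

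At T12 MYOG read 275.5 and 291 in LD of CN, 385.2 and 480 in CC, 402.8 and 351.1 in NC, and 263.2 and 313.3 in NN. CN and NN covered the same range, and CC and NC lay above both. The log2 difference of CN from the other genotypes was −0.34 ± 0.25 (SE, 95% interval −0.89 to 0.20). The level of CN was thus close at both ages (295 and 283.1), whereas in NN the mean signal went from 553.6 to 287.2. Over CC, NC and NN the age step was −0.44 ± 0.17 (SE, interval −0.82 to −0.05, limma adjusted p = 0.136), and the difference between the age steps was 0.38 ± 0.35 (SE, interval −0.39 to 1.14). Entered as 24 single arrays, the age step passed (adjusted p = 0.0254).

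Among the muscles of NN lambs at T12, MYOG was lowest in ST, at 184.3 and 198.8, followed by SM at 232.8 and 286.3. SS read 303.9 and 417.3. The mean of SM and ST differed from LD of CC, NC and NN by −0.69 ± 0.19 (log2 difference and SE, 95% interval −1.12 to −0.27, limma adjusted p = 0.416), with 0 of 7 member probe sets free of overlap in this comparison (2.05% of all). The arrays of NN in LD, 263.2 and 313.3, overlapped with those of SM, so the difference is larger against CC and NC. The F test over the 4 muscles took LD as the mean of CC, NC and NN. In it MYOG spanned 0.91 on the log2 scale (limma adjusted p = 0.246, or 0.0138 with 24 single arrays). LD of NN alone had a mean signal of 287.2, below SS of NN (356.1). In SS, MYOG read 270.9 and 289.3 in CN, below both NN arrays, and the difference was −0.35 ± 0.30 (SE, interval −1.01 to 0.32). With MYOD1 and FST, 3 of 7 member probe sets thus lay apart downwards in SS beside 17.5% of all. The highest MYOG means were those of NN, NC and CC at T0 (553.6, 469.3 and 444.3), followed by CC at T12 (430). Of the 11 gaps in the order of MYOG levels, 4 exceeded the array SD of 0.18, the widest being 0.43 between SM and ST.

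MYF6 (MRF4), the myogenic factor of mature fibres, was read by 1 probe set and was far above the array medians throughout. At T0 in LD it read 4468 and 4345.5 in CC, 4471.6 and 4832.4 in CN, 4785.8 and 4896.3 in NC, and 3884 and 4207.8 in NN. The groups lay close together, with an SD between the means of CC, NC and NN of 0.13 (log2). At T12 it read 4991.2 and 4592.8 in CC, 7597.7 and 6018.4 in CN, 6130.6 and 5219.8 in NC, and 8217 and 6828.5 in NN. The genotypes spread out with age: NN was highest and CC lowest, with 1 CC array above and 1 within the T0 range, and the SD between CC, NC and NN was 0.33.

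Over CC, NC and NN the age step of MYF6 was 0.41 ± 0.15 on the log2 scale (SE, 95% interval 0.08 to 0.74, limma adjusted p = 0.104), and the arrays of the 2 ages overlapped, as did those of the other 6 tested member probe sets (9.62% of all tested probe sets did not overlap). It passed without CC in the comparator (0.56, limma adjusted p = 0.0452) and with 24 single arrays (adjusted p = 0.0112). CN differed from the other genotypes by 0.07 ± 0.21 at T0 (SE, interval −0.39 to 0.54) and by 0.20 ± 0.21 at T12 (−0.26 to 0.67).

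SS had the highest MYF6 levels of all groups, 7836.9 and 8863.1 in CN and 8189.7 and 8608.4 in NN, and these overlapped. The log2 difference between CN and NN in SS was −0.01 ± 0.26 (SE, 95% interval −0.58 to 0.56). SM read 6358.2 and 7363.6, and ST read 5489.9 and 6813.1. SS of NN exceeded LD of CC, NC and NN by 0.52 ± 0.21 (SE, interval 0.05 to 0.98, limma adjusted p = 0.256, or 0.0498 with 24 single arrays). The mean signal was 8396 in SS of NN and, in LD at T12, 7491 in NN, 5657 in NC and 4788 in CC. The difference is therefore smaller against NN than against CC and NC, and the comparison mixes muscle with genotype. In the order of MYF6 means, SS of NN (8396) and of CN (8334) were followed by LD of NN at T12 (7491), SM (6842) and LD of CN at T12 (6762), and 3 of 11 gaps exceeded the array SD of 0.14. The highest LD array, 8217 in NN, lay within the SS range, so the muscles overlapped. Over the 12 group means MYF6 ran against MYOG (Pearson r = −0.619, Spearman rho = −0.657) and against MYOD1 (−0.609 and −0.678), a description over groups that differ in age, muscle and genotype at once. MSTN and FST had a Pearson r of −0.345 and a Spearman rho of 0.035.

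The wider myostatin and activin pathway was described by lists chosen with earlier results of these data known. Of 21 ligands, binding proteins and proteases 12 were tested, and of 20 receptors and intracellular factors 10. In CN against the other genotypes in LD, 0 of these 22 genes were called at T12 and 0 at T0, and in SS 0 as well (0.179%, 0.172% and 0% of all tested probe sets). At T12 the medians were −0.05 for the ligand list and 0.09 for the receptor list, beside −0.06 over all tested probe sets. ACVR2B, the main type II receptor of myostatin, had a log2 difference of 1.47 ± 0.53 in CN at T12 (SE, 95% interval 0.29 to 2.64, limma adjusted p = 0.351), and the proteoglycan DCN, which binds myostatin, had −0.33 ± 0.13 (interval −0.62 to −0.05, adjusted p = 0.401). INHBA, which encodes a subunit of activin A, had 0.23 ± 0.79 in CN at T12, 2.05 ± 0.79 at T0 (interval 0.31 to 3.79, adjusted p = 0.326) and −2.70 ± 0.97 in SS (−4.83 to −0.57, adjusted p = 0.988). All 3 genes were short of the threshold. By mean signal INHBA was the dimmest of the 12 tested ligand-list genes, and ACVR2B of the 10 receptor-list genes. In LD of CN, 4 ligand-list genes at T12 and 2 at T0 had a group mean under the lowest array median of 47.4. At T12, 1 receptor-list gene lay under it in LD of NC and of NN, and 0 in CN. The sizes of the INHBA and ACVR2B differences are therefore uncertain.

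With age, 1 of these 22 genes passed, beside 11.7% of all tested probe sets. TCAP, which encodes telethonin, a protein of the sarcomere that can bind myostatin, rose by 0.92 ± 0.19 on the log2 scale in LD of CC, NC and NN (limma adjusted p = 0.0102) and by 1.09 in a second probe set (adjusted p = 0.00799). At T0 it read 6008.8 to 11973.7 on the arrays of these genotypes and at T12 13346.5 to 20853.3, with no overlap. INHBA had 1.66 ± 0.56 (limma adjusted p = 0.0818) and the inhibin gene INHA −1.36 ± 0.42 (adjusted p = 0.0639), both short of the threshold. Of the receptor list 0 of 10 were called, with 5 positive and 5 negative.

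Of 31 partners and regulators of the myogenic factors 14 were tested, and 4 passed with age in LD, beside 11.7% of all tested probe sets. In CN 0 passed at T12, at T0 and in SS, beside 0.179%, 0.172% and 0% of all. MEF2C, the cofactor that acts with MYOD1 and MYOG on muscle promoters, fell by 1.59 ± 0.22 on the log2 scale (limma adjusted p = 0.0015). Its arrays read 1045.1 to 3501.1 at T0 and 478.3 to 1021 at T12 in CC, NC and NN, all lower at T12. TCF4, an E protein partner, fell by 0.43 ± 0.11 (limma adjusted p = 0.0264). ID1, which sequesters E proteins away from the myogenic factors, rose by 0.98 ± 0.24 (limma adjusted p = 0.0217). The acetyltransferase KAT2B rose by 0.45 ± 0.13 in its brightest probe set (limma adjusted p = 0.0447), while its other 3 gave 0.30, 0.32 and −1.23, none of them called. MEF2C was also the only gene of the 4 lists called in SS of NN against LD (2.96% of all tested probe sets were), where it was higher by 1.51 ± 0.31 (limma adjusted p = 0.0266), a call that was lost in 5 of the fits with 1 array omitted (highest adjusted p = 0.116).

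Of 26 targets of the myogenic factors 18 were tested, and with age 2 rose and 6 fell, beside 5.9% and 5.79% of all tested probe sets. The list's median was −0.18 beside 0.06 over all. The embryonic myosin MYH3 fell by 2.98 ± 0.55 on the log2 scale (limma adjusted p = 0.00627) and the neonatal myosin MYH8 by 2.13 ± 0.43 (adjusted p = 0.00966). MYH3 read 327.4 to 2900.6 at T0 and 89.4 to 182.2 at T12 on the arrays of CC, NC and NN, without overlap. CDKN1A, the cell cycle inhibitor p21 that myogenic factors induce, fell by 2.08 ± 0.28 (limma adjusted p = 0.0013), from arrays of 545.2 to 932.7 to arrays of 105.8 to 275.6.

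The other falls were the acetylcholine receptor subunit CHRND by 2.29 ± 0.49 (limma adjusted p = 0.0129), the cardiac actin ACTC1, which immature skeletal muscle also makes, by 1.21 ± 0.30 (adjusted p = 0.0247), and the integrin ITGA7, also in the satellite cell list, by 0.70 ± 0.17 (adjusted p = 0.0241). CHRND at T12 read 5.2 to 48.9, largely under the array medians, so the size of its fall is uncertain. Other probe sets of ITGA7 gave −0.72 (limma adjusted p = 0.0209) and −0.50 (adjusted p = 0.0778, not called). The sarcomere genes that rose were MYPN by 0.87 ± 0.15 (limma adjusted p = 0.00433) and KLHL41 by 0.37 ± 0.09 (adjusted p = 0.024). A second probe set of MYPN gave 0.52 and was not called (limma adjusted p = 0.0526). In CN against the other genotypes 0 of 18 targets were called at T12 (0.179% of all), with a median of −0.12, and 0 at T0 (0.172% of all), with a median of 0.19.

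Of the 13 pathway genes called with age, 8 were called in every fit with 1 array omitted. TCF4, KAT2B and ITGA7 lost the call in 4, 8 and 4 such fits (highest adjusted p = 0.192, 0.0902 and 0.0693). MYPN lost it without the second NN array at T0 (0.0775) and KLHL41 without the second NC array at T12 (0.0566). All 13 lost it when the spread was not modelled as depending on intensity (adjusted p = 0.0511 to 0.19). Without NC in the comparator only MEF2C and CDKN1A kept the call. The others lost it, with limma adjusted p from 0.0582 (MYPN) to 0.304 (KAT2B), MYH3 at 0.0815 and TCAP at 0.132. Without NN the call was lost by CHRND, TCF4, KLHL41, ITGA7, ACTC1 and KAT2B (limma adjusted p = 0.054 to 0.252). Without CC it was lost by ID1 (0.0629) and TCF4 (0.0699).

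**Figure D4:**
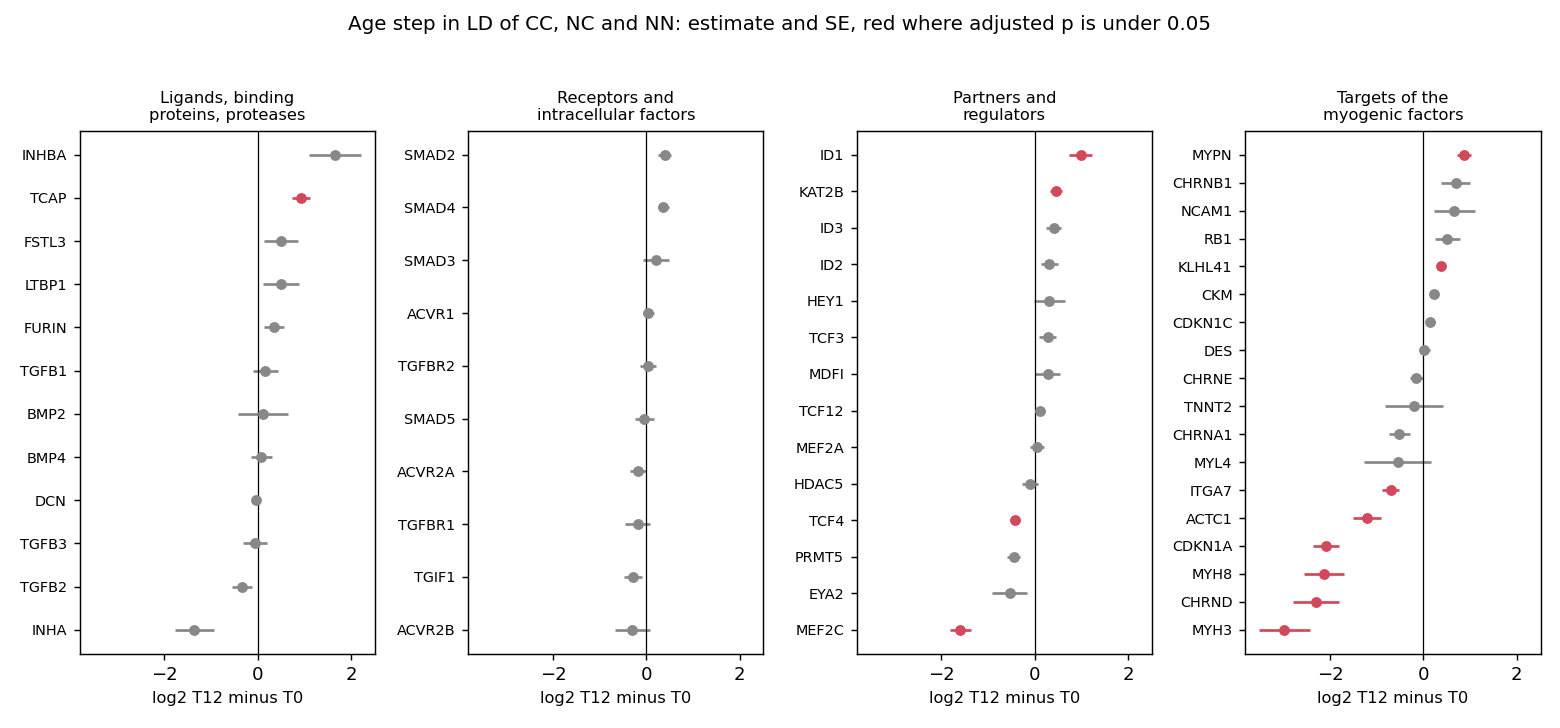
Age step in LD of CC, NC and NN (log2 T12 minus T0, with SE) of the tested genes in 4 pathway lists, red where the limma adjusted p is under 0.05. MYH3, CHRND, MYH8 and CDKN1A lie furthest to the left (−2.98 to −2.08), and 0 of 10 receptor genes are red.

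The genes whose group means most resembled each member, by Pearson r, were taken from about 2885 probe sets with a single gene symbol. These probe sets varied by at least 1 on the log2 scale over the 12 groups. Their lowest group mean was above the lowest array median. For brighter MSTN the most alike genes were led by PIGC (r = 0.903, Spearman rho = 0.832) and UFSP2 (0.781 and 0.839), and within the 8 LD groups r was 0.894 and 0.808. For FST they were led by FGGY (r = 0.889, rho = 0.79), PRKG1 (0.88 and 0.72) and ARSA (0.868 and 0.895). For MYOG the leading gene was SETD3 (0.855 and 0.832), and for MYF6 it was FBXO34 (0.915 and 0.93), then UBE2G2 (0.908 and 0.972). For brighter MYOD1 the leading gene, ZC3H14, had r = 0.906 but rho = 0.531 and r = 0.248 within LD, so that likeness was not seen within LD. These values are descriptions: the genes were picked as the highest of many over 12 points.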

How the data were processed

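The 24 arrays hold linear signal intensity per probe set, made by the authors with MAS5 per the submitters' processing notes (version: not given in the sources used here) and deposited scaled to a common trimmed mean. Values were floored at 1 (5477 of 579072) and taken to log2. By the labels each group has 2 technical arrays, which were averaged to 1 value. Technical arrays correlated at r = 0.974 to 0.988 (mean log2 signal over 8), and no pair was the same scan (at most 0.336% identical values). Replicate numbers do not pair groups: over 66 pairs of groups, deviations of same-numbered arrays correlated at −0.07 to 0.1.

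Tests used limma 3.58.1 in R 4.3.3 (lmFit and eBayes, the prior spread modelled on intensity), two-sided, with a threshold of 0.05 on the Benjamini-Hochberg adjusted p, on the 15654 probe sets with a group mean above 49.8 in at least 1 group, without 112 control probe sets. The model had 8 cells for 12 values, since at each age the CC, NC and NN values of LD form a single cell. This left 4 residual degrees of freedom (prior 6.89), and groups with a lone value are assumed to vary like these. For NC against NN and CC against NN the 8 LD values entered a model of age plus genotype, with 3 residual degrees (prior 7.13). Fits were tested on simulated data. Alternatives were quantile normalization, a floor or pseudocount of 16, other filters, no intensity trend, 24 single arrays with and without a replicate block, other comparators, and leaving out each array.

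Of the probe sets 13318 had 1 gene symbol in the platform annotation of 2016, 86 had several and 10724 none. All 6 member symbols occur in RefSeq's sheep gene table (assembly ARS-UI_Ramb_v3.0), where MYF5 and MYF6 are neighbours. Its coordinates and sequences were not used here. Members, lists and tests were chosen with earlier results of these data known. Named were all member probe sets, list genes past the threshold (by the probe set of highest mean signal) and the genes most like each member. ACVR2B, DCN, INHBA and INHA were named after their values were seen. The probes are bovine, and mismatches to sheep transcripts can lower a signal. Each group is a single value, since its arrays are technical, and this limits the precision.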

Additional observations from a re-analysis of the deposited data

Results flagged for a closer look

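In 5 cases a genotype effect on a member pointed in opposite directions in 2 conditions, with every array of the genotype on one side of every NN array in the first and on the other side in the second. The change of an effect against NN alone was not tested. For MYOD1 (brighter), the nearest tests set CN in LD against CC, NC and NN together, and neither passed. The CN age step differed from that of the other genotypes by 0.91 ± 0.55 (log2 and SE, limma adjusted p = 0.703). The CN effect in SS differed from that in LD by −2.43 ± 0.61 (limma adjusted p = 0.563). MYOD1 (brighter probe set) in CN minus NN was −0.96 on the log2 scale in LD at T0 and 0.59 at T12, a pattern shared by 7.57% of all tested probe sets. At T12 the same MYOD1 contrast was 0.59 in LD and −2.14 in SS (4.98% of all). MYOG in CC minus NN in LD was −0.32 at T0 and 0.58 at T12 (7.51% of all). MYF6 in CC minus NN was 0.12 at T0 and −0.65 at T12, and in NC minus NN it was 0.26 at T0 and −0.41 at T12 (5.87% of all). In each of the MYOG and MYF6 cases the NN level itself moved most with age, from 553.6 to 287.2 for MYOG and from 4043 to 7491 for MYF6.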

How the results depend on the processing

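Over 84 member results and 2706 alternative values, 15 values changed side of the threshold, 17 changed sign without an array being left out and 61 with one left out. These results include those of a comparison added after the MSTN values had been seen (CC and CN against NC and NN). All sign changes concern differences that had missed the threshold. Entered as 24 single arrays with the group as a random block, 1 member was called in CN at T0 (MYOG), 2 with age (MYOG and MYF6), 1 over the 4 muscles (MYOG), 1 in SS against LD (MYF6) and 1 in SM and ST against LD (MYOG). With the replicate number as a further block the counts were 1, 2, 1, 0 and 1 (MYOG in CN at T0 at limma adjusted p = 0.0369). The replicate numbers do not pair the groups. Without CC in the comparator 1 member (MYF6) was called with age. In that added comparison, which was chosen on the MSTN values, neither MSTN probe set passed with 1 value per group (limma adjusted p = 0.402 for both). With 24 single arrays the dimmer probe set passed (limma adjusted p = 0.0459, or 0.0485 with the replicate block). The brighter passed only with that block (0.0333). Because the comparison was chosen on these values, its passes are a description. In all other alternatives, each left-out array included, 0 members were called.

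Quantile normalization gave MYOD1 (brighter) 0.008 in SM and ST against LD and 0.027 in NC against NN, and a floor of 16 gave MYOD1 (dimmer) 0.195 in the difference of age steps. Without CC in the comparator, FST in CN at T0 was 0.051, the difference of age steps was 0.18 for MYOD1 (dimmer) and −0.017 for MYF6, SS against LD was 0.216 for MSTN (dimmer) and 0.116 for MYOG, and SM and ST against LD was 0.173 and 0.234 for MSTN, 0.035 for MYOD1 (brighter) and −0.009 for MYF6. Without NC, MYOG in SS against LD was 0.019 and MYOD1 (brighter) in SM and ST against LD 0.111. Without NN, MSTN (brighter) was −0.073 in CN at T0 and −0.443 with age, and MYOG in the CN effect of SS minus that of LD was 0.159. The cause was not tested.

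With each array left out in turn, the ranges that cross 0 were as follows. MYOD1 (brighter) in CN at T12 went from −0.036 to 0.615, FST in CN at T0 from −0.13 to 0.036, MSTN (brighter) with age from −0.17 to 0.181, and the MYF6 difference of age steps from −0.039 to 0.297. In CN against NN in SS, MSTN (brighter) went from −0.323 to 0.268 and MYF6 from −0.099 to 0.078. The CN effect of SS minus that of LD went from −1.84 to 1.025 for MYOD1 (dimmer) and from −0.232 to 0.226 for MYOG. In SS against LD, MSTN (dimmer) went from −0.241 to 0.113, MYOD1 from −1.178 to 0.291 (brighter) and −0.826 to 2.039 (dimmer), and MYOG from −0.242 to 0.215. In SM and ST against LD, MSTN went from −0.224 to 0.126 (brighter) and −0.319 to 0.227 (dimmer), FST from −0.015 to 0.301 and MYOD1 (brighter) from −0.165 to 0.16. In NC against NN, FST went from −0.08 to 0.196, MYOD1 from −0.348 to 0.32 (brighter) and −1.045 to 0.639 (dimmer), and MYOG from −0.034 to 0.185. In CC against NN, FST went from −0.015 to 0.261 and MYOD1 from −0.193 to 0.12 (brighter) and −0.9 to 0.114 (dimmer). In CC and CN against NC and NN, MYOD1 (brighter) went from −0.27 to 0.064.

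Counts of calls over all tested probe sets were 28 in CN at T12 (0 without an intensity trend, 11 with quantile normalization, 246 with the replicate block), 27 at T0 (0, 7 and 560) and 1830 with age (225, 1808 and 2848). The 4 muscles gave 201 (1, 218 and 852), SS against LD 463 (86, 541 and 1135), SM and ST against LD 7 (0, 7 and 88), CC against NN 2 (0, 2 and 44) and NC against NN 2 (0, 2 and 7). The block on single arrays takes the spread of technical arrays for part of the error, and MYF5 and MYOD1 (dimmer) are limited by signal near or under the array medians.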

Other observations

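A comparison added after the MSTN values had been seen set CC and CN, the genotypes with a paternal mutant allele, against NC and NN over the 8 LD values, in a model that also held age. MSTN was higher by 0.98 ± 0.23 (log2 difference and SE, 95% interval 0.49 to 1.47) in the brighter and by 0.76 ± 0.17 (0.38 to 1.14) in the dimmer probe set. Neither passed (limma adjusted p = 0.402 for both), and 0.0128% of all tested probe sets did, with 7.89% at an unadjusted p under 0.05. Leaving out single arrays kept the differences between 0.85 and 1.11 and between 0.69 and 0.83. FST differed by −0.12 ± 0.17, MYOG by −0.20 ± 0.20 and MYF6 by −0.08 ± 0.14 in the same comparison. Because the comparison was chosen on these values, it is a description, and the GAPDH integrity ratio separates the same arrays, whose part was not tested.

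In SS of NN against LD, 2 of 8 tested slow fibre markers rose, beside 2.96% of all tested probe sets. TNNT1 rose by 0.69 ± 0.14 (log2 and SE, limma adjusted p = 0.0246, or 0.0693 without the second NC array of LD at T12) and MYOZ2, a Z-disc protein of slow fibres, by 1.32 ± 0.21 (adjusted p = 0.00655). The median of the list was 0.60 beside 0.02 over all tested probe sets. Of 7 tested fast fibre markers, ACTN3, TNNT3 and TNNI2 were called lower, beside the same 2.96%. ACTN3, the actinin of fast fibres, fell by 1.28 ± 0.15 (limma adjusted p = 0.00122). The troponin genes TNNT3 and TNNI2 had −0.58 and −0.49 (limma adjusted p = 0.0246 and 0.0483). Their calls were lost in 3 and 9 of the fits with 1 array omitted. Of 6 tested adipocyte markers 2 rose and 1 fell. The lipoprotein lipase gene LPL rose by 2.80 ± 0.23 (limma adjusted p = 0.000142) and the adiponectin gene ADIPOQ by 1.71 ± 0.37 (adjusted p = 0.0354). The adipsin gene CFD fell by 1.61 ± 0.26 (limma adjusted p = 0.00807), but its difference was −0.33 (adjusted p = 0.517) without the second NN array of SS. ADIPOQ lost its call in 2 of the fits with 1 array omitted (highest adjusted p = 0.0526). The 6 adipocyte markers summed to 2747 to 2970.1 in SS of NN and 835.2 to 1184.7 in LD of CC, NC and NN at T12. Of the tested targets of the myogenic factors 0 of 18 were called in the same comparison, beside the same 2.96%.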
